A study of Mus musculus with 12 samples.

Results

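Lysosomes are acidic organelles in which hydrolases break down proteins, glycans and lipids that arrive by endocytosis and autophagy. Most of these enzymes are made in the endoplasmic reticulum, tagged with mannose 6-phosphate in the Golgi and carried to the lysosome by sorting receptors, while heavily glycosylated membrane proteins such as Lamp1 and Lamp2 line the organelle. The related transcription factors Tfeb and Tfe3 bind an E-box type of site, known as the CLEAR element, in the promoters of many of these genes, and are held in the cytoplasm by phosphorylation through the nutrient-sensing kinase mTOR. In collecting duct cells the lysosome is also one of the places to which the water channel aquaporin-2 is sent after it has been taken back from the cell surface.

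The 35 genes described here were taken by name: 8 membrane or transport proteins, 25 hydrolases and other lumenal proteins, and the factors Tfeb and Tfe3. The subunits of the vacuolar proton pump were left out. All 35 had a row among the 25208 genes of the table, and all 35 passed the filter on low counts that left 16508 genes for testing. The gene with the fewest reads had a mean of 361 reads per library. The samples were mouse mpkCCDc11 cells, 1 immortalised line from the kidney collecting duct, and the study asked how loss of Ctnnb1, the gene of beta-catenin, bears on the genes that respond to vasopressin. Cells on permeable supports were transfected with a control siRNA or a Ctnnb1 siRNA (50 nM), grown for 4 days and then starved of serum and hormones for 24 h. For the next 24 h they had vehicle or 1 nM dDAVP on their basolateral side. dDAVP is a vasopressin analogue that acts through the V2 receptor. The 4 groups of 3 libraries were control siRNA with vehicle (labelled WT), control siRNA with dDAVP (labelled WT), Ctnnb1 siRNA with vehicle and Ctnnb1 siRNA with dDAVP (both labelled Ctnnb1 Knockdown). The labels do not say whether the replicates of a group came from separate cultures, so each p-value is set against a spread among samples that may be technical only.

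Total RNA without ribosomal RNA was sequenced, and the libraries held 32997720 to 48935473 counted reads. Levels of 1 gene across libraries are given in CPM, read counts scaled to the size of the library with the TMM method. Levels of different genes are compared in TPM, a transcript share that the authors deposited and that takes transcript length into account. The siRNA target Ctnnb1 had 745 to 811 CPM in the 6 control-siRNA libraries and 306 to 342 CPM in the 6 Ctnnb1-siRNA libraries, and Aqp2 had 0 to 6 reads in vehicle libraries and 155 to 302 reads with dDAVP. Of 16 collecting duct markers 13 had a mean of at least 1 TPM, led by Krt18 at 1710 TPM, and the V2 receptor gene Avpr2 had 38.0 TPM. Markers of fibroblasts summed to at most 1.47 TPM in a library and those of endothelium to at most 0.61 TPM. The 4 proximal tubule markers with values, of 8 listed, were nearly all Lrp2 (mean 10.4 TPM, the others under 0.1 TPM), and their sum was lower with dDAVP: 11.3 to 13.4 TPM against 8.70 to 10.7 TPM with control siRNA, and 11 to 11.1 TPM against 8.35 to 9.34 TPM with Ctnnb1 siRNA. The 7 leukocyte markers with values, of 12 listed, summed to 50.9 to 54.2 TPM (control siRNA, vehicle), 55.3 to 66.9 TPM (control siRNA, dDAVP), 55.6 to 56.5 TPM (Ctnnb1 siRNA, vehicle) and 61.1 to 80.4 TPM (Ctnnb1 siRNA, dDAVP). Nearly all of that sum was Cd14 (mean 43.3 TPM) and Csf1r (12.3 TPM), while the pan-leukocyte marker Ptprc had 0.045 TPM and Itgam 0.00417 TPM. The part of these markers in the results below was not tested. Among replicates, number 3 of Ctnnb1 siRNA with dDAVP differed most from its mates, with a chi-square per degree of freedom of 39.4 and 63.8 over genes against 5.11 to 23.5 for the other pairs of replicates. In a bulk sample, fewer cells of a type and less RNA per cell cannot be told apart.

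Promoter sequences of the 3 members whose dDAVP response passed the test and whose window holds the E-box core CACGTG, and of Lamp1, whose window holds the most copies, are printed here to show what the candidate Tfeb sites look like. They come from the RefSeq windows of GRCm38.p6, which run from 250 bases before to 50 bases after an annotated start. They are written 5′ to 3′ on the strand of the gene, with CACGTG in capitals. The windows of Ctsd and Ctsl overlap annotated exons of the same genes, so only the sites with up to 12 bases on either side are shown.
Ctsd, chr7:142388055-142388077, minus strand: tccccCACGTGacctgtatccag
Ctsd, chr7:142387908-142387937, minus strand: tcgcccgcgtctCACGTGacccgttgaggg
Ctsl, chr13:64370739-64370768, minus strand: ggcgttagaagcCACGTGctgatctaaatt
Glb1, chr9:114400990-114401075, plus strand: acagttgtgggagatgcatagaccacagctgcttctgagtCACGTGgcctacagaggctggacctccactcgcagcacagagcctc
Lamp1, chr8:13159060-13159160, plus strand: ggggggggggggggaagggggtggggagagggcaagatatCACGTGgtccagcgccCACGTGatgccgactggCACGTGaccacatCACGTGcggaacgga

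Counted from the annotated start, the motif begins at bases -245 and -98 in Ctsd, at -236 in Ctsl and at -48 in Glb1. In Lamp1 the 4 copies begin at -61, -45, -28 and -15. CACGTG reads the same on both strands, and it was present in 10 of the 30 members with a window (33.3%), against 7.15% of all 32851 windows and 8.09% of the 27025 genes that have one. The other members that hold it are Ctsa, Cln3, Mcoln1, Naglu, Gaa and Gla. The longer palindrome TCACGTGA, which contains CACGTG, was found in 5 members (16.7%), namely Ctsa, Cln3, Ctsd, Mcoln1 and Gla, against 0.974% of windows. The cAMP response element TGACGTCA was found in 1 member (3.33%), Gusb, where it begins at base -4, against 1.79% of windows and 2.03% of genes. Among the 7 members that responded to dDAVP, 5 had a window: Ctsd, Ctsl and Glb1 held CACGTG, and Smpd1 and Scarb2 held none of the 3 motifs. The motif was present both in a member that rose with dDAVP and in members that fell, and a match of letters describes the window only.

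The lysosomal genes were expressed at widely different levels. Over the 12 libraries their mean TPM ran from 461.8 for Psap to 5.83 for Gla, with a median of 31.3 TPM against 14.8 TPM over all tested genes, and 27 of the 35 lay above that all-gene median. Above 100 TPM were 7 members, between 10 and 100 TPM were 24, and under 10 TPM were Lipa, Npc1, Cln3 and Gla. Each member was steady across the study in comparison: the highest library was between 1.13 times (Ctsb) and 1.80 times (Scarb2) the lowest. In control-siRNA vehicle cells the order by TPM began Psap, Lamp1, Ctsd, Asah1, Cd63, Npc2, Ctsa, Lamp2, Ctsb and Grn, and no 2 neighbours among these overlapped in their 3 libraries. Of all 34 neighbouring pairs 15 overlapped, each of them lower in the order, among them all pairs from Man2b1 through Gusb, Fuca1, Scarb2, Galns, Mcoln1, Hexa and Naglu to Neu1, which had means of 24.3 to 34.1 TPM. Each of these genes overlaps its neighbour, while genes further apart in the run can still be separate: the 3 libraries of Man2b1 (31.79 to 37.53 TPM) lie above those of Scarb2 (29.44 to 29.83 TPM) and Neu1 (23.35 to 24.86 TPM).

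**Figure D1:**
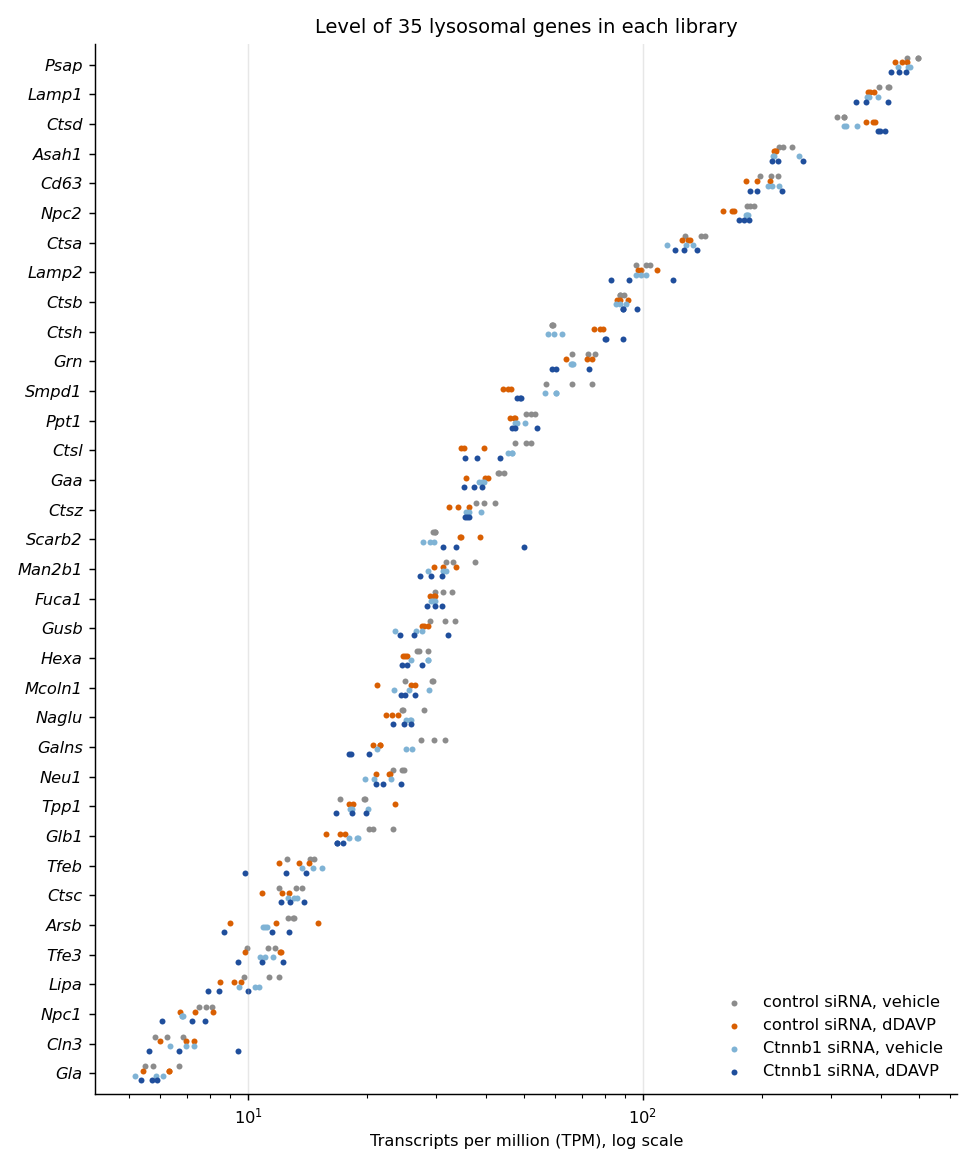
TPM of the 35 lysosomal genes (log axis) in each of the 12 libraries, 1 point per library coloured by group, with genes ordered by their mean. Levels span from 461.8 TPM for Psap to 5.83 TPM for Gla, while the libraries of 1 gene stay within 1.80 times of each other.

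Psap encodes prosaposin, the precursor of the saposins that help enzymes reach their sphingolipid substrates. It had 465.96, 498.25 and 497.68 TPM in control-siRNA vehicle libraries, 467.28, 436.1 and 453.07 TPM with dDAVP, 443.4, 468.89 and 475.59 TPM with Ctnnb1 siRNA and vehicle, and 446.36, 425.64 and 463.64 TPM with Ctnnb1 siRNA and dDAVP. Lamp1, a main glycoprotein of the lysosomal membrane, had 397.38, 416.45 and 418.9 TPM, then 385.17, 372.34 and 376.38 TPM, then 373.64, 369.98 and 394.17 TPM, and 368.05, 346.23 and 417.45 TPM in the same order of groups. Asah1, the acid ceramidase, had 221.06, 226.28 and 238.45 TPM, then 214.76, 217.88 and 216.64 TPM, then 214.25, 214.19 and 248.55 TPM, and 212.46, 219.88 and 254.32 TPM. In none of these 3 abundant members did an effect of dDAVP or of the siRNA pass the test, and their log2 fold changes lay between -0.07 (Lamp1, dDAVP with control siRNA) and 0.16 (Asah1, Ctnnb1 siRNA with dDAVP). Cd63, a tetraspanin of late endosomes and lysosomes, had 198.35, 219.28 and 211.48 TPM, then 210.42, 182.69 and 194.94 TPM, then 220.7, 212.5 and 207.63 TPM, and 194.94, 187.1 and 224.55 TPM. Npc2, which hands cholesterol to the membrane protein Npc1, had 183.67, 191.07 and 186.6 TPM, then 170.08, 167.86 and 159.8 TPM, then 182.2, 184.96 and 183.34 TPM, and 174.95, 179.87 and 185.97 TPM. In TPM the groups of Cd63 overlap, and the control-siRNA dDAVP libraries of Npc2 are the 3 lowest of the 12. In CPM, the scale of the tests, the picture differs: Npc2 overlaps between vehicle and dDAVP with control siRNA. Psap overlaps between these groups in TPM, while in CPM its dDAVP libraries all lie below its vehicle libraries (means of 603 and 627 CPM), a difference that did not pass. For Cd63 the Ctnnb1-siRNA libraries lie above the control-siRNA libraries with vehicle (97.5 to 101 against 89.9 to 95.2 CPM) and with dDAVP (94.6 to 101 against 87.7 to 91.8 CPM).

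Added up, the 35 genes made 2934 ± 93.3 TPM (SD, n = 3) in control-siRNA vehicle cells, 2812 ± 71.0 with dDAVP, 2822 ± 75.5 with Ctnnb1 siRNA and vehicle, and 2863 ± 176 with Ctnnb1 siRNA and dDAVP. In CPM, which does not weigh by length, the sums were 3552 ± 33.3, 3503 ± 98.8, 3594 ± 138 and 3774 ± 84.2 (SD, n = 3 each). The members held between 0.274% and 0.306% of all TPM, and 6 small structural RNAs that take from 8.89% to 17.7% of TPM move those shares: with these RNAs removed the log2 ratio of the summed TPM between dDAVP and vehicle went from -0.06 to -0.01 with control siRNA. In CPM the 3 Ctnnb1-siRNA dDAVP libraries (3682 to 3848) lie above all 6 control-siRNA libraries (3439 to 3617). In deposited TPM the 4 groups overlap, and with the small RNAs removed the Ctnnb1-siRNA dDAVP sums (3281 to 3423 TPM) lie above those of control siRNA with dDAVP (3211 to 3254 TPM).

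The first comparison was dDAVP against vehicle in control-siRNA cells. Ctsh and Ctsd, a cysteine and an aspartic protease, rose, and Smpd1, Galns, Ctsl and Glb1 fell. These 6 of 35 members (17.1%) passed edgeR's quasi-likelihood test at a Benjamini-Hochberg adjusted p under 0.05 over all genes, where 2.83% of the 16508 tested genes did. By direction, 2 members rose, against 1.91% of all genes that rose, and 4 fell, against 0.915% that fell. The log2 fold change was positive in 10 members and negative in 25, with a median of -0.06 against 0.00 over all tested genes (-0.004221 before rounding). Without regard to sign, the median was 0.0758 for the members and 0.105 over all tested genes. The lowest mean of a member was 361 reads, while the tested genes include some with few reads. Shares called, here and below, and these medians are therefore not on a like footing. Adjusted p-values are from edgeR unless another tool is named.

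The second comparison was the same contrast in Ctnnb1-siRNA cells, and it shares no library with the first. Ctsh, Ctsd and Scarb2 rose, and no member fell, so 3 of 35 (8.57%) passed where 2.78% of all tested genes did. All 3 rose, against 2.08% of all genes, and 0 fell, against 0.697%. The log2 fold change was positive in 26 members and negative in 9, with a median of 0.03 against 0.00 over all genes (-0.004927 before rounding). Without regard to sign, the median was 0.046 for the members and 0.0984 over all tested genes. Averaged over both siRNAs, 7 members (20.0%) passed: Ctsh, Ctsd and Scarb2 rose and Smpd1, Galns, Ctsl and Glb1 fell, against 6.86% of all genes, 4.33% that rose and 2.54% that fell.

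**Figure D2:**
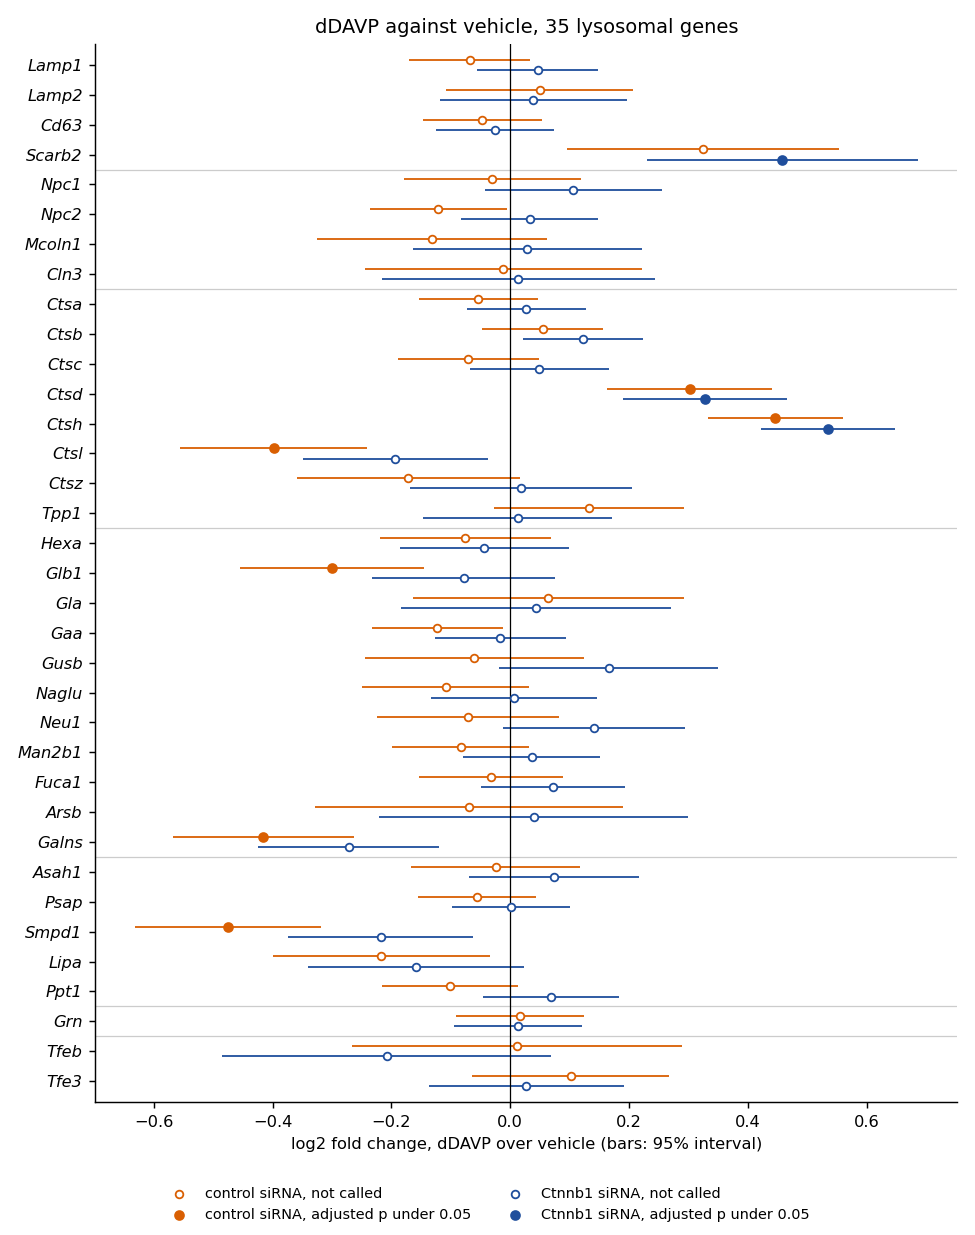
log2 fold change of dDAVP over vehicle for the 35 lysosomal genes with control siRNA and with Ctnnb1 siRNA, with 95% intervals, where filled points passed the test and grey lines part the roles. Ctsh and Ctsd lie to the right in both sets, and Ctsl, Smpd1, Galns and Glb1 lie to the left and passed with control siRNA.

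Among the proteases, Ctsh (gene ID 13036, GRCm38.p6 chr9:90054267-90076095), a cathepsin with aminopeptidase activity, had the smallest adjusted p of any member. It had 48.5, 45.9 and 44.7 CPM in control-siRNA vehicle libraries and 62.0, 64.5 and 63.1 CPM with dDAVP. With Ctnnb1 siRNA it had 48.5, 47.9 and 52.5 CPM with vehicle and 69.8, 73.8 and 72.0 CPM with dDAVP. All 6 dDAVP libraries were above all 6 vehicle libraries. The rise was 1.36-fold with control siRNA (log2 0.45, SE 0.0532, adjusted p = 0.000135) and 1.45-fold with Ctnnb1 siRNA (log2 0.53, SE 0.0529, adjusted p = 2.31e-05), higher in 3 of 3 libraries each time. On average the rise was 1.405-fold (log2 0.49, SE 0.0375, adjusted p = 4.51e-07), and each of these calls held in every alternative.

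Ctsd (gene ID 13033, chr7:142375910-142387827) encodes cathepsin D, the main aspartic protease of the lysosome. It had 315, 286 and 291 CPM in control-siRNA vehicle libraries and 359, 389 and 352 CPM with dDAVP. In Ctnnb1-siRNA cells it had 316, 320 and 348 CPM with vehicle and 406, 446 and 381 CPM with dDAVP. Within each siRNA the 3 dDAVP libraries were above the 3 vehicle libraries. The rise was 1.23-fold with control siRNA (log2 0.30, SE 0.0649, adjusted p = 0.0179) and 1.254-fold with Ctnnb1 siRNA (log2 0.33, SE 0.0649, adjusted p = 0.0106), and the average log2 fold change was 0.31 (SE 0.0459, adjusted p = 0.000380). Without control-siRNA vehicle replicate 2 or 3, or without control-siRNA dDAVP replicate 2, the first call was lost (adjusted p = 0.0988, 0.0934 and 0.0605), and without Ctnnb1-siRNA vehicle replicate 1 or 2 the second was lost (0.0712 and 0.0744). In the GENCODE annotation 34.4% of the exon bases of Ctsd overlap the same-strand gene Gm49369, and how shared reads were counted is not stated. Among the other members, Ctsb (12.8%, with Fdft1), Hexa (12.8%, with Tmem202) and Ctsa (10.5%, with Pltp) share over 10% of their exon bases with a coding gene on the opposite strand, and their counts are uncertain to that extent. The same holds for Arsb, where the opposite-strand noncoding genes Gm26527 and Gm47210 cover 32.3% and 7.67% of the exon bases.

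Ctsl (gene ID 13039, chr13:64361890-64370772) encodes cathepsin L, an endopeptidase of the same papain-like family as cathepsin H. It had 84.8, 85.2 and 85.6 CPM in control-siRNA vehicle libraries and 58.6, 73.8 and 61.6 CPM with dDAVP. After Ctnnb1 siRNA it had 82.7, 82.4 and 84.8 CPM with vehicle and 66.9, 75.7 and 76.0 CPM with dDAVP. The 6 vehicle libraries were all above the 6 dDAVP libraries. The fall of 1.32-fold with control siRNA passed (log2 -0.40, SE 0.0737, adjusted p = 0.00626), and was lost without control-siRNA dDAVP replicate 3 (adjusted p = 0.0564). The log2 fold change of -0.19 with Ctnnb1 siRNA did not pass (SE 0.0733, adjusted p = 0.222) except with voom and sample weights (0.0331), and the average of -0.30 passed (SE 0.0520, adjusted p = 0.00192). An antisense gene, Gm47123, covers 26.8% of the exon bases of Ctsl, and it is not stated whether counting used the strand.

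Among the proteases Ctsh and Ctsd rose with dDAVP and Ctsl fell, and the levels of Ctsh and of Ctsd were also set against Ctsl in each library. The ratio of Ctsh to Ctsl in TPM was 1.24, 1.17 and 1.13 in control-siRNA vehicle libraries and 2.29, 1.89 and 2.22 with dDAVP. In Ctnnb1-siRNA libraries it was 1.27, 1.26 and 1.34 with vehicle and 2.27, 2.11 and 2.06 with dDAVP. The 6 dDAVP libraries do not overlap the 6 vehicle libraries, a description that follows from the members chosen, with no test. The ratio of Ctsd to Ctsl in TPM ran from 6.15 to 7.51 in vehicle libraries and from 9.18 to 11.2 with dDAVP. The other proteases did not pass in any comparison. For Ctsa (protective protein and carboxypeptidase), Ctsb, Ctsc (dipeptidyl peptidase 1), Ctsz and Tpp1 (tripeptidyl peptidase 1), the log2 fold changes with dDAVP ran from -0.17 (Ctsz, control siRNA) to 0.13 (Tpp1, control siRNA). Ctsb had 209, 199 and 198 CPM and, with dDAVP, 208, 216 and 206 CPM in control-siRNA cells, and 208.46, 207.85 and 222 CPM and, with dDAVP, 226, 241 and 228 CPM in Ctnnb1-siRNA cells. Its average log2 fold change with dDAVP was 0.09 (SE 0.0336, adjusted p = 0.149), and DESeq2 gave an adjusted p of 0.0431. Tpp1 had 31.0, 33.7 and 33.0 CPM and, with dDAVP, 40.4, 34.0 and 32.7 CPM in control-siRNA cells, where 1 library stands above the rest, and 36.1, 33.65 and 33.5 CPM and 34.997, 33.8 and 35.3 CPM in Ctnnb1-siRNA cells. Its average log2 fold change was 0.07 (SE 0.0529, adjusted p = 0.522).

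**Figure D3:**
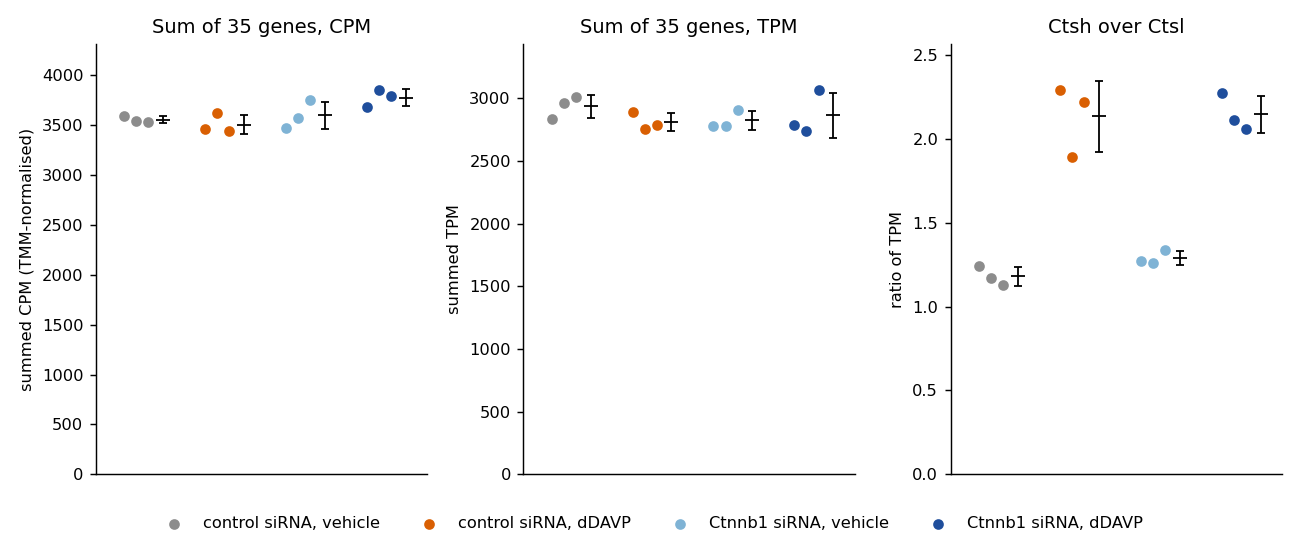
Summed CPM and summed TPM of the 35 lysosomal genes and the ratio of Ctsh to Ctsl in TPM, 1 point per library, with the mean and SD of 3 libraries beside each group (linear axes from 0). In summed CPM the Ctnnb1-siRNA dDAVP libraries (3682 to 3848) lie above the control-siRNA libraries (3439 to 3617), in summed TPM the groups overlap, and the ratio lies at 1.13 to 1.34 with vehicle and at 1.89 to 2.29 with dDAVP.

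Among the lipid hydrolases, Smpd1 (gene ID 20597, chr7:105554360-105558389), the acid sphingomyelinase that turns sphingomyelin into ceramide, had the largest fall of any member with control siRNA. It had 69.7, 76.5 and 84.2 CPM in control-siRNA vehicle libraries and 51.5, 58.4 and 55.8 CPM with dDAVP. With Ctnnb1 siRNA it had 68.5, 74.9 and 75.4 CPM with vehicle and 62.2, 66.9 and 59.1 CPM with dDAVP. Within each siRNA the 3 dDAVP libraries were below the 3 vehicle libraries, by a wider gap with control siRNA. The fall with control siRNA was 1.39-fold (log2 -0.48, SE 0.0736, adjusted p = 0.00147). With Ctnnb1 siRNA the log2 fold change was -0.22 (SE 0.0732, adjusted p = 0.155), and the average was -0.35 (SE 0.0519, adjusted p = 0.000483). Lipa, the acid lipase for cholesteryl esters and triglycerides, had 14.8, 17.1 and 15.8 CPM and, with dDAVP, 13.8, 14.6 and 12.6 CPM in control-siRNA cells. In Ctnnb1-siRNA cells it had 16.0, 14.5 and 16.0 CPM and, with dDAVP, 13.4, 13.4 and 14.9 CPM, where the groups overlap. Its average log2 fold change of -0.19 did not pass (SE 0.0604, adjusted p = 0.0806), but it did without Ctnnb1-siRNA dDAVP replicate 3 (adjusted p = 0.0440) and with voom and sample weights (0.0187). Asah1, Psap and Ppt1, the palmitoyl-protein thioesterase, had average log2 fold changes with dDAVP from -0.03 to 0.02.

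Among the glycosidases and sulfatases, Galns (gene ID 50917, chr8:122578237-122611701), which removes sulfate from keratan sulfate and chondroitin 6-sulfate, fell with dDAVP. It had 34.0, 35.9 and 37.3 CPM in control-siRNA vehicle libraries and 26.0, 27.8 and 26.6 CPM with dDAVP. In Ctnnb1-siRNA cells it had 27.1, 32.3 and 31.5 CPM with vehicle and 24.4, 25.7 and 25.2 CPM with dDAVP. The dDAVP libraries were below the vehicle libraries within each siRNA, and the lowest vehicle library was Ctnnb1-siRNA replicate 1. The fall was 1.33-fold with control siRNA (log2 -0.42, SE 0.0713, adjusted p = 0.00353). With Ctnnb1 siRNA the log2 fold change of -0.27 lay just outside the threshold (SE 0.0715, adjusted p = 0.0579), and it passed in 6 alternatives, among them without Ctnnb1-siRNA vehicle replicate 1 (adjusted p = 0.0171) and with DESeq2 (0.0191). The average was -0.34 (SE 0.0505, adjusted p = 0.000407).

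Glb1 (gene ID 12091, chr9:114401078-114474379), the lysosomal beta-galactosidase, also fell with control siRNA. It had 24.4, 26.2 and 23.0 CPM in control-siRNA vehicle libraries and 19.5, 19.6 and 20.7 CPM with dDAVP. After Ctnnb1 siRNA it had 21.4, 23.4 and 23.1 CPM with vehicle and 22.1, 22.3 and 19.9 CPM with dDAVP, and these groups overlap. The fall with control siRNA was 1.23-fold (log2 -0.30, SE 0.0727, adjusted p = 0.0369). Leaving out 1 library lost this call for each of the 6 control-siRNA libraries and for Ctnnb1-siRNA vehicle replicates 2 and 3, with adjusted p-values from 0.0563 to 0.190. With Ctnnb1 siRNA the log2 fold change was -0.08 (SE 0.0723, adjusted p = 0.718), and the average was -0.19 (SE 0.0513, adjusted p = 0.0356), lost when any 1 of 8 libraries was left out (0.0583 to 0.104).

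The other members of the glycosidase and sulfatase group are Hexa (a hexosaminidase subunit that acts on gangliosides), Gla (alpha-galactosidase A), Gaa (acid alpha-glucosidase), Gusb (beta-glucuronidase), Naglu (which removes N-acetylglucosamine from heparan sulfate), Neu1 (a sialidase), Man2b1 (alpha-mannosidase), Fuca1 (alpha-fucosidase) and Arsb (arylsulfatase B). None of these 9 passed in any comparison. Their log2 fold changes with dDAVP ran from -0.12 (Gaa) to 0.06 (Gla) with control siRNA and from -0.04 (Hexa) to 0.17 (Gusb) with Ctnnb1 siRNA. Gaa had 77.8, 73.4 and 74.0 CPM and, with dDAVP, 69.4, 67.3 and 70.3 CPM in control-siRNA cells, and 70.1, 70.4 and 73.0 CPM and 67.0, 74.8 and 69.3 CPM in Ctnnb1-siRNA cells, where the groups overlap. Its average log2 fold change with dDAVP was -0.07 (SE 0.0365, adjusted p = 0.329). The progranulin gene Grn, whose product is cleaved into granulins in the lysosome, had log2 fold changes of 0.02 and 0.01 with the 2 siRNAs.

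Among the membrane proteins, Scarb2 (gene ID 12492, chr5:92441311-92505657), also known as LIMP-2, is a sorting receptor and structural protein of the lysosomal membrane. It had 70.7, 67.6 and 66.2 CPM in control-siRNA vehicle libraries and 88.1, 86.85 and 81.1 CPM with dDAVP. With Ctnnb1 siRNA it had 66.0, 70.5 and 72.7 CPM with vehicle and 79.1, 90.5 and 118 CPM with dDAVP. All 6 dDAVP libraries were above the 6 vehicle libraries, and the highest was Ctnnb1-siRNA dDAVP replicate 3, the library that differs most from its mates. With Ctnnb1 siRNA Scarb2 rose 1.37-fold (log2 0.46, SE 0.106, adjusted p = 0.0339), and without that library the log2 fold change was 0.28 and still passed (adjusted p = 0.0236). With control siRNA the log2 fold change was 0.32 (SE 0.106, adjusted p = 0.149), and without the same library, which is in neither of those groups but enters the shared estimate of the spread, it was 0.32 with an adjusted p of 0.00284, and it also passed in the fit of the 2 groups alone (0.00259). The call with Ctnnb1 siRNA was lost in a fit of the 2 groups alone (adjusted p = 0.147), with voom and sample weights (log2 0.29, 0.0527), on log2 TPM (0.235), and without 6 other libraries, taken 1 at a time (0.0549 to 0.153). The average rise was 1.31-fold (log2 0.39, SE 0.0752, adjusted p = 0.00510).

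Lamp1, Lamp2, a second lysosomal glycoprotein with a role in chaperone-mediated autophagy, and Cd63 did not pass, with log2 fold changes with dDAVP between -0.07 and 0.05. The lipid and ion transport proteins Npc1 and Npc2 (cholesterol export), Mcoln1 (a calcium-permeable channel of the lysosomal membrane) and Cln3 (mutated in a juvenile neuronal storage disease) had negative log2 fold changes of -0.13 to -0.01 with control siRNA and positive ones of 0.01 to 0.11 with Ctnnb1 siRNA, and none passed. Of these, Npc2 came closest with control siRNA (log2 -0.12, SE 0.0542, adjusted p = 0.309), and it passed on log2 TPM (0.0410) and with voom and sample weights (0.0469).

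**Figure D4:**
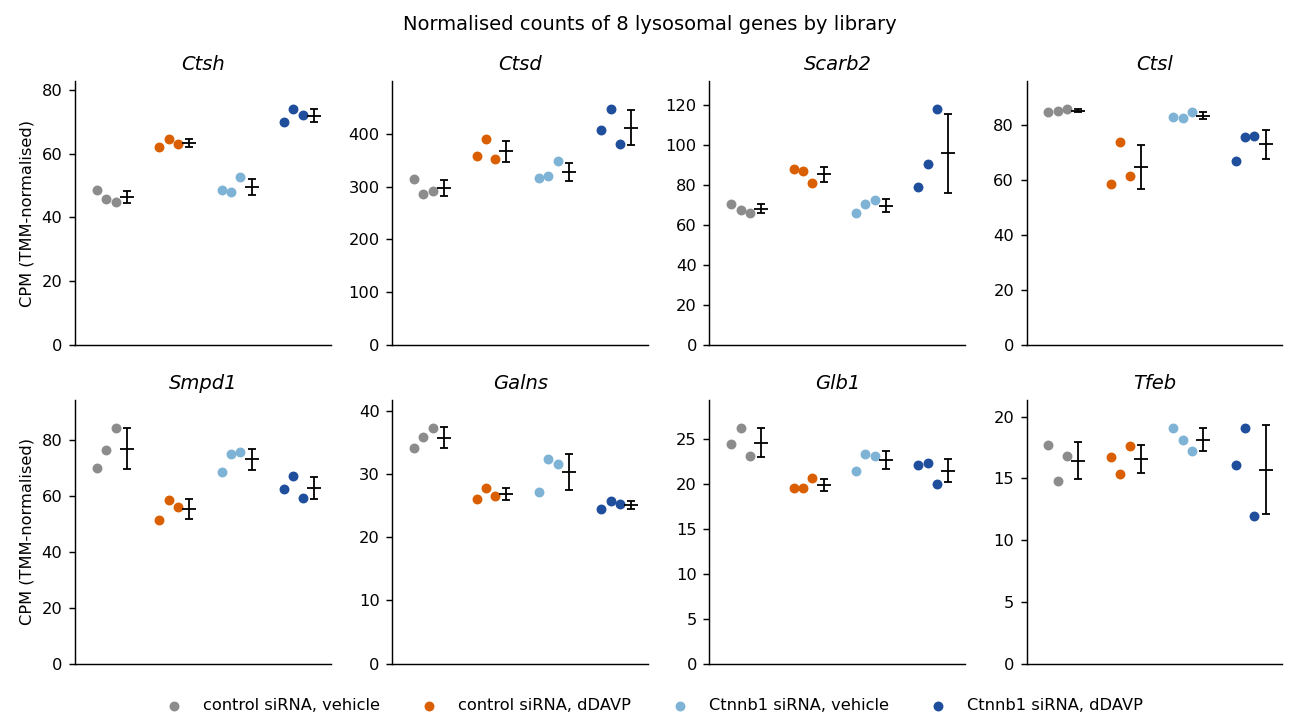
TMM-normalised CPM of the 7 members that responded to dDAVP and of Tfeb, 1 point per library, with the mean and SD of 3 libraries beside each group (linear axes from 0). Ctsh, Ctsd and Scarb2 are higher with dDAVP. Ctsl, Smpd1 and Galns are lower with dDAVP within each siRNA, and Glb1 is lower with control siRNA. In the pairwise comparisons these falls passed the test with control siRNA and not with Ctnnb1 siRNA, and all 4 passed in the average over both siRNAs. The groups of Tfeb overlap.

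The factors Tfeb and Tfe3, at means of 13.4 and 11.1 TPM, did not pass the test in any comparison. Tfeb (gene ID 21425, chr17:47737037-47792416) had 17.7, 14.8 and 16.9 CPM in control-siRNA vehicle libraries and 16.8, 15.3 and 17.6 CPM with dDAVP. In Ctnnb1-siRNA cells it had 19.1, 18.1 and 17.2 CPM with vehicle and 16.1, 19.1 and 11.964 CPM with dDAVP, the lowest in replicate 3. Its log2 fold changes with dDAVP were 0.01 (SE 0.130, adjusted p = 0.984) with control siRNA, a sign that turned in 3 of the alternatives, and -0.21 (SE 0.130, adjusted p = 0.546) with Ctnnb1 siRNA. The latter was -0.04 without Ctnnb1-siRNA dDAVP replicate 3 and -0.37 without replicate 2 of that group, and passed in neither case (adjusted p = 0.885 and 0.145). Tfe3 (gene ID 209446, chrX:7762530-7775202) had 16.4, 17.7 and 17.8 CPM in control-siRNA vehicle libraries and 19.0, 17.0 and 19.6 CPM with dDAVP. After Ctnnb1 siRNA it had 17.975, 19.4 and 17.999 CPM with vehicle and 19.0, 17.6 and 19.8 CPM with dDAVP. The vehicle and dDAVP groups of Tfe3 overlap within each siRNA. With vehicle, the Ctnnb1-siRNA libraries of Tfe3 lie above its control-siRNA libraries by a small gap, and that difference did not pass. The log2 fold changes of Tfe3 with dDAVP were 0.10 (SE 0.0776, adjusted p = 0.615) with control siRNA and 0.03 (SE 0.0771, adjusted p = 0.931) with Ctnnb1 siRNA. The latter turned sign in 3 alternatives. Transcript levels do not show where these factors are in the cell. The related factor Mitf had 0.393 to 0.575 CPM as group means.

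Across the 35 members the dDAVP effect with control siRNA and with Ctnnb1 siRNA, which share no library, had a Pearson correlation of 0.842 and a Spearman correlation of 0.554, against 0.286 and 0.265 over the 16508 tested genes. The members share depth and scaling within a library. The tested genes include some with few reads, such as Mitf with 5 to 32 reads per library, while the lowest mean of a member was 361 reads. The correlations of the members and of all tested genes are therefore not on a like footing. The sign of the 2 effects was the same in 17 of the 35 members (48.6%), against 60.1% of all tested genes. The test of the difference itself, the interaction of siRNA and dDAVP, called 0 members with edgeR, where 0% of all genes were called (percent called 0). At an unadjusted p under 0.05 there were 3 members, Smpd1 (log2 0.26, SE 0.104, adjusted p = 0.918), Ppt1 (log2 0.17, SE 0.0761, adjusted p = 0.918) and Glb1 (log2 0.22, SE 0.103, adjusted p = 0.918), and DESeq2 and voom with sample weights called 0 members as well. The number at an unadjusted p under 0.05 ran from 0, without control-siRNA dDAVP replicate 1, to 7 with voom and sample weights. The interval of the difference was 0.04 to 0.48 for Smpd1, -0.02 to 0.43 for Ctsl and -0.07 to 0.36 for Galns (95%, log2 scale). That a fall passed with control siRNA and not with Ctnnb1 siRNA is therefore not shown to be a difference between the siRNAs.

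The remaining pairwise comparisons, which use the same 12 libraries as those above, set Ctnnb1 siRNA against control siRNA. With vehicle no member passed, where 0.430% of all tested genes did, and 3 members had an unadjusted p under 0.05 with edgeR: Galns (log2 -0.24, SE 0.0709, adjusted p = 0.249), Cd63 (log2 0.11, SE 0.0467, adjusted p = 0.571) and Ctsd (log2 0.14, SE 0.0649, adjusted p = 0.607). DESeq2 and voom with sample weights called 0 members too. The log2 fold change was positive in 17 members and negative in 18. With dDAVP no member passed with edgeR, where 0.267% of all genes did, but 11 had an unadjusted p under 0.05, all with a positive log2 fold change. In that comparison 29 of the 35 log2 fold changes were positive, with a median of 0.10 against 0.00 over all genes (0.001076 before rounding). The largest were Npc2 (log2 0.20, SE 0.0542, adjusted p = 0.154) and Ctsh (log2 0.19, SE 0.0525, adjusted p = 0.176). DESeq2 called these 2 (adjusted p = 0.0204 and 0.0481) and voom with sample weights called Npc2 (0.0246). The log2 ratio of the summed members in this comparison was 0.107 in CPM and 0.026 in TPM, so its size depends on the scale. The control-siRNA dDAVP libraries also enter the first comparison, where 25 members had a negative value. For counts at an unadjusted p under 0.05 and counts of signs, here and in the other comparisons and lists, the share over all tested genes is not given.

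Npc2 had 305, 299 and 286 CPM in control-siRNA vehicle libraries and 268, 291 and 260 CPM with dDAVP. With Ctnnb1 siRNA it had 299.73, 311 and 311 CPM with vehicle and 306, 334 and 303 CPM with dDAVP. The 3 Ctnnb1-siRNA dDAVP libraries are above the 3 control-siRNA dDAVP libraries, and with vehicle the groups overlap. Averaged over both treatments, edgeR called 0 members for Ctnnb1 siRNA, where 1.85% of all genes passed, and 10 had an unadjusted p under 0.05. The members nearest the threshold were Ctsh (log2 0.14, SE 0.0375, adjusted p = 0.0706), Cd63 (log2 0.12, SE 0.0330, adjusted p = 0.0960), Ctsd (log2 0.15, SE 0.0459, adjusted p = 0.122) and Npc2 (log2 0.13, SE 0.0383, adjusted p = 0.123). DESeq2 and voom with sample weights each called 5 members, all higher: these 4 and Ctsb. Over all genes those tools called 586 and 924 for this contrast, against 305 with edgeR. Without Ctnnb1-siRNA dDAVP replicate 3 edgeR called Ctsd and Npc2 (adjusted p = 0.0274 and 0.0478), and without control-siRNA dDAVP replicate 2 it called Npc2 (0.0485). The average effects of the 5 were from 1.077-fold (Ctsb) to 1.112-fold (Ctsd).

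**Figure D5:**
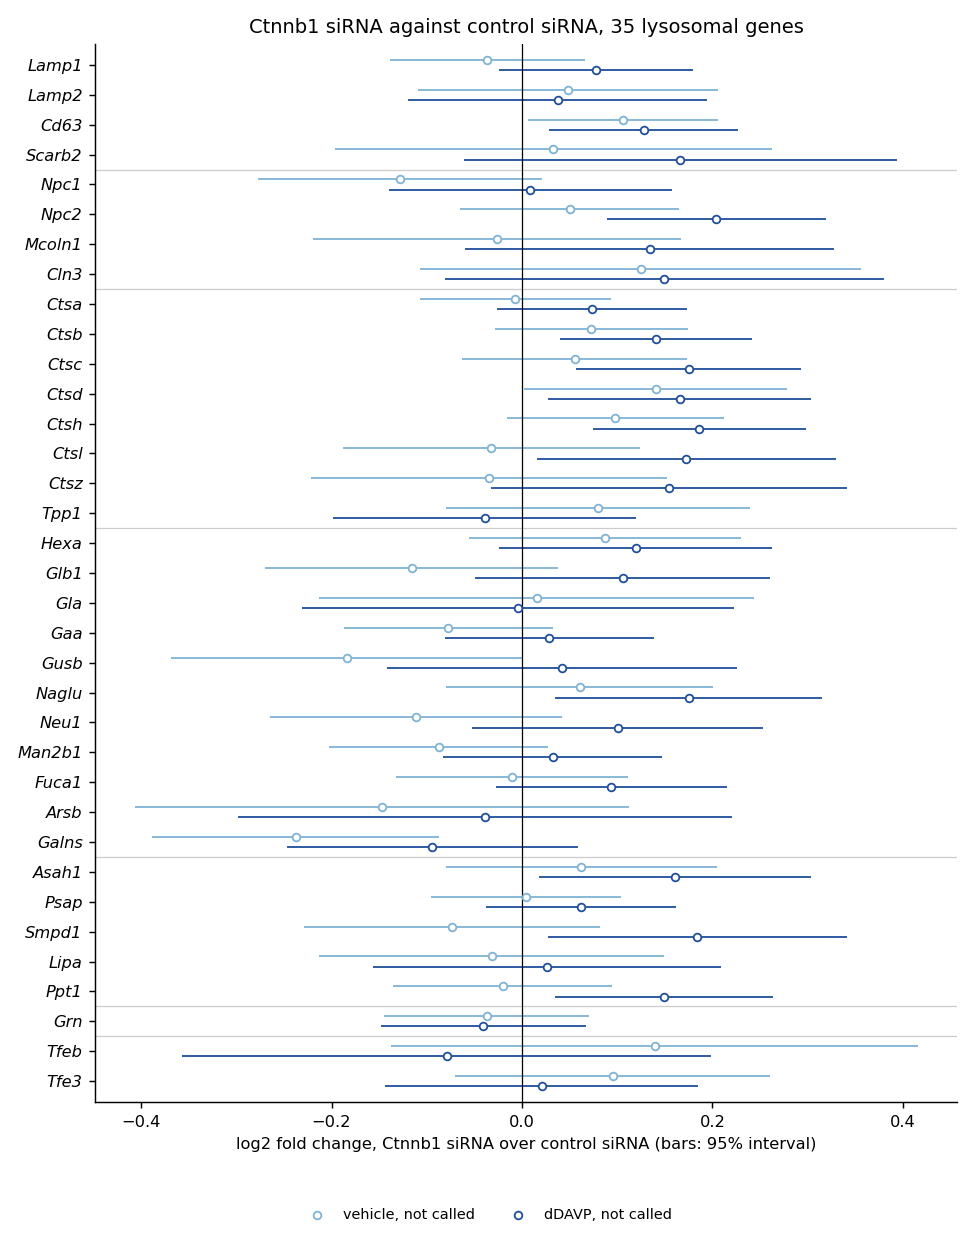
log2 fold change of Ctnnb1 siRNA over control siRNA for the 35 lysosomal genes with vehicle and with dDAVP, with 95% intervals and grey lines between the roles. No point passed the test, and with dDAVP 29 of the 35 points lie to the right of 0.

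Libraries of 1 group also differed for the members as a set. Ctnnb1-siRNA vehicle replicate 3 had the highest CPM of its group for 24 of the 35 members (68.6%), against 36.3% of all tested genes, and control-siRNA dDAVP replicate 2 for 23 members (65.7%), against 37.9%. Ctnnb1-siRNA dDAVP replicate 1 was the highest for 1 member (2.86%), against 27.4%. The part of these shifts in the comparisons was not tested.

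Other genes of the pathway were taken from 5 lists. Of 32 further lysosomal enzymes and cofactors tested, 1 (3.12%, near the 2.83% of all genes) passed for dDAVP in control-siRNA cells and fell: Manba, the beta-mannosidase (gene ID 110173, chr3:135485611-135571404), from 92.1 ± 4.04 to 74.9 ± 3.74 CPM (SD, n = 3; log2 -0.30, SE 0.0574, adjusted p = 0.00818), a call lost without control-siRNA vehicle replicate 2 (0.0644). None passed with Ctnnb1 siRNA, where 8 had an unadjusted p under 0.05 with edgeR. Averaged over both siRNAs 5 passed (15.6%, against 6.86% of all genes). Of these, Dnase2a (lysosomal DNA endonuclease, log2 0.25, SE 0.0492, adjusted p = 0.00498) and Scpep1 (a serine carboxypeptidase, log2 0.19, SE 0.0502, adjusted p = 0.0338) rose. In the same average Manba (log2 -0.20, SE 0.0405, adjusted p = 0.00581), Arsa (arylsulfatase A, log2 -0.20, SE 0.0498, adjusted p = 0.0233) and Acp2 (lysosomal acid phosphatase, log2 -0.13, SE 0.0356, adjusted p = 0.0375) fell. The calls of Scpep1, Arsa and Acp2 were each lost when certain single libraries were left out (adjusted p up to 0.0934, 0.0812 and 0.121). Scpep1 was also lost on log2 TPM (0.229), and Acp2 without the filter on low counts (0.0605, edgeR). The median log2 fold change of this list was -0.10 with control siRNA and -0.03 with Ctnnb1 siRNA.

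Of 24 other lysosomal membrane proteins, 0 passed in a pairwise comparison, and Mfsd12, which imports cysteine into lysosomes, fell on average with dDAVP (1 of 24 or 4.17%, against 6.86% of all genes, log2 -0.16, SE 0.0434, adjusted p = 0.0349), a call lost when any 1 of 8 libraries was left out (up to 0.0953). None of the 18 genes for mannose 6-phosphate tagging and sorting receptors passed with edgeR in any comparison, and the receptor gene M6pr had 218 ± 7.58, 213.9 ± 1.44, 211.8 ± 8.59 and 218.6 ± 4.43 TPM in the 4 groups (SD, n = 3 each). At an unadjusted p under 0.05 this list had 0 genes in either dDAVP comparison and 3 for Ctnnb1 siRNA with dDAVP. Of 21 tested genes for MiT factors and nutrient sensing, 1 (4.76%, against 6.86%) fell on average with dDAVP, Zkscan3, a zinc finger repressor of lysosomal and autophagy genes (log2 -0.14, SE 0.0368, adjusted p = 0.0257), a call lost when any 1 of 6 libraries was left out (up to 0.0829). Of 25 autophagy genes 1 (4.00%) passed in Ctnnb1-siRNA cells, against 2.78% of all genes, and 1 on average, against 6.86%. It was Uvrag, a partner of Beclin 1, which rose with dDAVP in Ctnnb1-siRNA cells from 36.4 ± 0.841 to 46.5 ± 4.24 CPM (SD, n = 3; log2 0.35, SE 0.0751, adjusted p = 0.0174) and on average (log2 0.27, SE 0.0532, adjusted p = 0.00521). Both calls were lost on log2 TPM (0.291 and 0.141), and the first also without each of the 3 Ctnnb1-siRNA vehicle libraries (0.0504 to 0.099).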

How the data were processed

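The authors deposited 1 table of 25208 genes with 12 columns of read counts and 12 columns of TPM, 1 of each per library, per the file headers. Per the submitters' processing notes, the tools were FastQC, Trimmomatic, HISAT2, StringTie and DESeq2 on GRCm38 (mm10), without versions. Per the labels' protocols, libraries were strand-specific; whether counting used the strand is not given in the sources used here, and 11 members overlap exons of another coding gene. The 35 members, the gene lists and the tests were chosen with earlier results of these data known.

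The counts went into edgeR 4.0.16 (R 4.3.3). filterByExpr kept 16508 genes, which hold 99.968% of the reads, and TMM factors set the library sizes. A robust quasi-likelihood model held all 12 libraries with a coefficient for every group, and its common biological coefficient of variation was 8.26%. The F test of each contrast was adjusted by the Benjamini-Hochberg method across the genes kept, and 0.05 was the threshold. The procedure was tested on simulated data. SE and 95% intervals are from the same model. Deposited TPM served for levels between genes. Values in every library are given for called members, for Tfeb and Tfe3, for the 6 members of highest TPM and, since fewer than 8 members were called, for the 4 uncalled members of smallest p in each average effect. From each list up to 4 called genes per comparison were named, apart from 1 that is not reported here, and M6pr, Mitf and Acp2 were named beyond that rule after their values were seen. Coordinates and promoter windows are from RefSeq (GRCm38.p6), and exon overlaps from GENCODE. The search of the windows matched 30 members, and Ctsb, Ctsh, Asah1 and Galns had none. Windows on chromosome 18, where Npc1 lies, were left out for the members, so Npc1 was not searched. The shares over all windows and genes were taken without this exclusion.

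The alternatives replaced edgeR by DESeq2 1.42.0, by voom (limma 3.58.1) with sample weights, or by limma on log2 of the deposited TPM plus 1. Others replaced TMM by RLE or by upper-quartile factors, dropped the low-count filter or made it stricter (mean of 20 reads, and 1 CPM in 3 libraries), fitted only the pair of groups compared, added the replicate block, or left out each library in turn.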

Additional observations from a re-analysis of the deposited data

How the results depend on the processing

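Of 16 called member values, 9 kept their call in every alternative and 0 changed sign. Calls lost are given in the report, beside these: the average fall of Glb1 was lost without a filter (adjusted p = 0.0508, edgeR) and without 8 single libraries, and the average rise of Scarb2 on log2 TPM (0.0582). Members called ranged from 4 to 9 for dDAVP with control siRNA and from 1 to 4 with Ctnnb1 siRNA, where leaving out 1 library gave 1 to 3. For Ctnnb1 siRNA with dDAVP, DESeq2 called 2 and voom 1 against 0, and for its average both called 5 against 0, with 0 to 2 when 1 library was left out. The cause was not tested. Of 41 uncalled member values that were recomputed 2 changed sign, 1 of Tfeb and 1 of Tfe3. The 41 had an unadjusted p under 0.05 in edgeR, apart from Tfeb and Tfe3, which were taken by name for the 2 dDAVP comparisons. Values picked by a small p lie away from 0, and the other uncalled values were not recomputed. The count therefore does not describe how steady the sign of uncalled members is. Tfeb with control siRNA gave a log2 fold change with dDAVP of -0.060 on log2 TPM, -0.052 when control-siRNA vehicle replicate 2 was left out and -0.031 without the third dDAVP library of control siRNA, and up to 0.0671 without another library. Tfe3 with Ctnnb1 siRNA gave -0.00197 with voom, -0.037 on log2 TPM and -0.013 without Ctnnb1-siRNA dDAVP replicate 3, and up to 0.0722 without another. The log2 ratio of the summed members for Ctnnb1 siRNA was -0.056 with vehicle and 0.026 with dDAVP in TPM, and 0.017 and 0.107 in CPM, and leaving out 1 library moved the second TPM value between -0.0259 and 0.0566. Average calls with dDAVP in the further lists were lost for Acp2 (up to 0.121), Arsa (0.0812), Mfsd12 (0.0953), Zkscan3 (0.0829) and Scpep1 (0.0934) when 1 library was left out. Over all tested genes, edgeR called 467 for dDAVP with control siRNA against 744 with DESeq2 and 1301 with voom, and 459 with Ctnnb1 siRNA against 737 with DESeq2, 275 in the 2-group fit and 207 on log2 TPM. For Ctnnb1 siRNA it called 71 with vehicle (DESeq2 169, voom 253, 2-group fit 255, log2 TPM 47) and 44 with dDAVP (DESeq2 259, voom 301, 2-group fit 8, log2 TPM 17). The averages gave 1133 for dDAVP (voom 1843) and 305 for Ctnnb1 siRNA (DESeq2 586, voom 924).

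Replicate numbers did not pair the libraries: over 18 same-numbered pairs the correlation of deviations from group means ran from -0.142 to 0.345, 2 were over 0.1, and 4 of 12 libraries correlated best with their own number. With the replicate block, 5 members were called for dDAVP with control siRNA (Glb1 lost, adjusted p = 0.0540) and 4 with Ctnnb1 siRNA (Galns gained, 0.0411), and the other comparisons kept their number of called members.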
